A study of Mus musculus with 6 samples.

Results

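The hair shaft keratins are the structural proteins that fill the cells of the growing hair. The 10 genes described here, Krt31, Krt32, Krt33a, Krt33b, Krt34, Krt35, Krt81, Krt83, Krt85 and Krt86, were taken by symbol from a table of 23726 gene models, and all 10 were found. The 6 mouse libraries hold stages of tumours raised in skin with DMBA, which mutates DNA, and TPA, which promotes the growth of mutated keratinocytes. The biopsies were healthy total skin (1 library), papilloma 1 and papilloma 2, and 1 tumour, all of these lesions raised with DMBA/TPA. Cells isolated from a DMBA/TPA tumour were mSCC-38, labelled tumorigenic, and mSCC-20, labelled non tumorigenic, with 1 library each; the label of mSCC-20 alone says that the cells were cultured. The labels give no strain, age, site or hair cycle stage for any sample, and do not say whether the papillomas came from separate mice. Only papilloma has more than 1 library, so p-values rest on the spread between its 2 libraries, which may be technical, and levels in skin, tumour, mSCC-38 and mSCC-20 carry no replicate error.

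Hair keratins form filaments as obligate partners, an acidic type I chain with a basic type II chain. They are made in order as matrix cells at the base of an active follicle move up and harden into the cortex and cuticle of the shaft, where keratin-associated proteins link the filaments. The follicle produces them in its growth phase, anagen, and hardly at all when it rests. In human follicles, KRT35 and KRT85 come first, in the matrix and lower shaft, KRT32 belongs to the cuticle, and KRT31, KRT33A, KRT33B, KRT34, KRT81, KRT83 and KRT86 belong mainly to the cortex.

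The 10 keratins split the biopsies sharply. They were abundant in skin, with a sum of 5651 CPM (counts per 1000000 counts, scaled by TMM factors), and were lower but still plainly present in papilloma 2, with 1358 CPM. Papilloma 1 held 4.41 CPM and the tumour 6.39 CPM. The isolated cells held less, with 1.89 CPM in mSCC-38 and 3.74 CPM in mSCC-20. Krt32 alone gave 33 of the 94 counts in papilloma 1. As a share of the skin level, the sum stood at 0.0781% in papilloma 1 (95% interval 0.0631 to 0.0956%), 24.0% in papilloma 2 (23.8 to 24.3%) and 0.113% in the tumour (0.1 to 0.127%). In the isolated cells it stood at 0.0335% in mSCC-38 (0.0258 to 0.0429%) and 0.0661% in mSCC-20 (0.0546 to 0.0794%). The interval of the tumour lies above both of these, and that of papilloma 1 overlaps that of mSCC-20. Intervals are exact Clopper-Pearson intervals of counts and cover counting error only. In bulk samples, fewer cells of a type and less RNA per cell cannot be told apart.

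**Figure D1:**
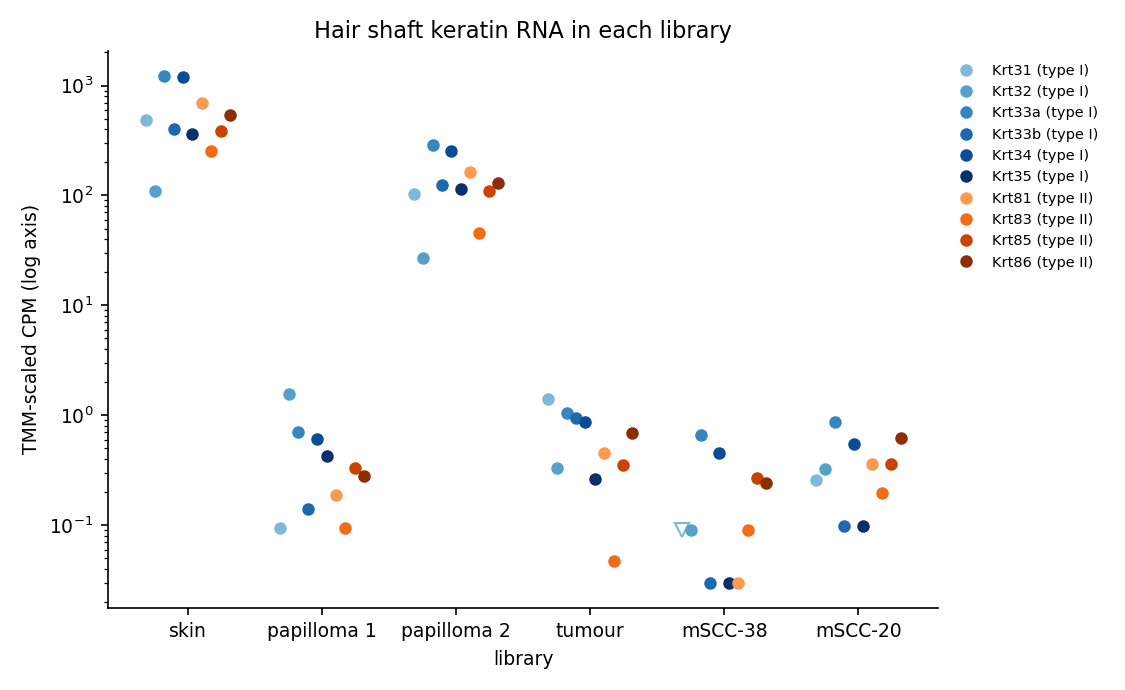
Level of each of the 10 hair shaft keratins (points, shades of blue for type I and of orange for type II) in each library, as TMM-scaled CPM on a log axis, with an open triangle at the limit that a count of 0 allows. All 10 lie between 111 and 1219 CPM in skin and between 26.7 and 286 CPM in papilloma 2, and none passes 1.55 CPM in the other 4 libraries.

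The keratinocyte markers Krt5, Krt14, Krt1 and Krt10 summed to 11251 CPM in skin. They summed to 53756, 42444 and 25896 CPM in papilloma 1, papilloma 2 and the tumour. Of the 4, 2 rose in papilloma, Krt14 and Krt1 (edgeR adjusted p = 0.0196 and 0.0156), where 1959 of the 16353 genes tested rose. The tumour sum came mainly from Krt5 and Krt14, at 12139 and 13565 CPM. Krt1 and Krt10 stood at 96.6 and 94.3 CPM in the tumour, against 1369 and 4652 CPM in skin. Both were lower in the tumour than in papilloma (edgeR adjusted p = 0.00369 and 0.00448). Total counts ran from 25140489 in papilloma 1 to 42992597 in the tumour, and a count of 0 allows up to 3 counts, or 0.0604 to 0.141 CPM. RNA integrity numbers in the labels ran from 7.5 in skin to 9.6 in mSCC-38, with 8.4 and 8.2 in papilloma 1 and papilloma 2; the part of depth, integrity or biopsy content in the results below was not tested.

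The type I genes lie together on chromosome 11, between 99872514 (the start of Krt33a) and 99957538 (the end of Krt35), and the type II genes on chromosome 15, from Krt83 at 101261922, in the mm9 build of the table. Promoter sequences of RefSeq (GRCm38.p6) were matched for 4 of the 10 genes, Krt31, Krt32, Krt33b and Krt34, all on the minus strand of chromosome 11. They are shown because only these genes had an entry. All 4 genes were highest in skin, next in papilloma 2 and at traces elsewhere, but they did not move as one. Krt32 kept 1.40% of its skin level in papilloma 1, where Krt31, Krt33b and Krt34 kept 0.0195, 0.0348 and 0.0507%. Each line gives the 250 bases before the start of transcription, 5′ to 3′, in lower case. Capitals mark the letters CTTTGAAG and TTTTATG, the only runs of at least 7 bases that the 4 sequences all share on the gene's strand, and TATAAA. The 4 windows are chr11:100050552-100050801 for Krt31, chr11:100088270-100088519 for Krt32, chr11:100029869-100030118 for Krt33b and chr11:100041555-100041804 for Krt34.
Krt31: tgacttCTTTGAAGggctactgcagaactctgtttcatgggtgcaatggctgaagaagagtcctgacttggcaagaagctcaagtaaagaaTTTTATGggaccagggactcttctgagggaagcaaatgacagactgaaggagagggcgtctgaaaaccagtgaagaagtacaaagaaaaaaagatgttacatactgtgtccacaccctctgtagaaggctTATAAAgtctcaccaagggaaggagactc
Krt32: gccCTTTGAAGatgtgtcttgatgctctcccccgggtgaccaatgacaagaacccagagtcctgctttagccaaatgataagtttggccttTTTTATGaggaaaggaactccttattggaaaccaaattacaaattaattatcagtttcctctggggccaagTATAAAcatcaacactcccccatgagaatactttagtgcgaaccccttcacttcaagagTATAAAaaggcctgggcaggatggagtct
Krt33b: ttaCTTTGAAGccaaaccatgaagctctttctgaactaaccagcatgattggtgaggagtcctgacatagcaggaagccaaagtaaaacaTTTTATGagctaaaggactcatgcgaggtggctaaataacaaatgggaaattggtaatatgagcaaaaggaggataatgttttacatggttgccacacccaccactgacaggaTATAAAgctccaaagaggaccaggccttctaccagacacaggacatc
Krt34: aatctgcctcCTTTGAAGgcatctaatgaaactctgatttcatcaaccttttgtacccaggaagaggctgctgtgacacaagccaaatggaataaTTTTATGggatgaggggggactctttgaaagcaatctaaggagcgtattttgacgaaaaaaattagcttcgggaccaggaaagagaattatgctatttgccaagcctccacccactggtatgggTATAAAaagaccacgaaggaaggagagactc

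The shared runs sat at nearly the same distance from the start in all 4 promoters. CTTTGAAG began 240 to 247 bases before the start and TTTTATG 155 to 160 bases before it. On the gene's strand, CTTTGAAG was found in 261 of 32851 promoter entries (0.795%) and TTTTATG in 559 (1.70%). Only 9 entries held both, the 4 keratins and 5 others. Of 51 Krtap genes with an entry, which encode the keratin-associated proteins of hair, 6 held CTTTGAAG. These runs were read from the same 4 sequences, so their presence there is a description and not a test.

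**Figure D2:**
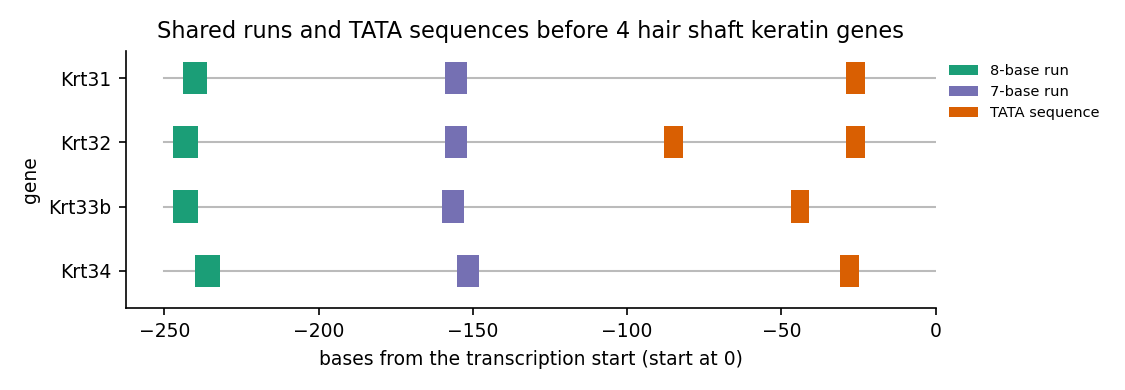
Position of the 8-base run CTTTGAAG, the 7-base run TTTTATG and TATAAA (coloured blocks) in the 250 bases before the start of 4 hair shaft keratin genes, with the start at 0. The 8-base run begins 240 to 247 bases and the 7-base run 155 to 160 bases before the start in every gene.

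Motifs named for factors of the shaft were looked for on both strands. CTTTGA, the core of sites for Lef1 and Tcf, the DNA-binding partners of beta-catenin, was in all 4 windows and in 13.8% of all promoter entries; it lies inside CTTTGAAG, and Krt34 held a further copy. TATAAA was in all 4 and in 12.4% of entries. TTTAT, a homeobox type motif, was in all 4 and in 37.3% of entries, but it overlaps TTTTATG on one strand and TATAAA on the other. TTAAT, also of homeobox type, was in Krt32 alone of the 4 and in 24.9% of entries. A match of these letters says nothing of binding in these samples.

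Krt35 and Krt85, the pair that human follicles switch on first, were both present in skin and papilloma 2 and at traces elsewhere. Krt35 (type I) stood at 362, 0.423, 115 and 0.260 CPM in skin, papilloma 1, papilloma 2 and the tumour, and at 0.0301 and 0.0975 CPM in mSCC-38 and mSCC-20. Krt85 (type II) stood at 382, 0.329, 111 and 0.355 CPM in the same biopsies, and at 0.271 and 0.357 CPM in mSCC-38 and mSCC-20. Papilloma 2 thus held 31.6% of the skin level of Krt35 (30.4 to 32.8%) and 29.0% of that of Krt85 (27.9 to 30.1%), and every other library held 0.117% or less of either. The deposited Krt85 model spans 175821 bases for a length of 1438, on chromosome 15 from 101346120 to 101521940, and overlaps 10 other models. Krt6a and Krt6b, stress keratins within that span, had 505179 and 433801 counts in papilloma 1, where Krt85 had 7.

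Krt32, a keratin of the cuticle, the outer scale layer of the shaft, was the lowest member per length in skin and papilloma 2. It stood at 111, 1.55, 26.7 and 0.331 CPM in skin, papilloma 1, papilloma 2 and the tumour, and at 0.0902 and 0.325 CPM in mSCC-38 and mSCC-20. It was also the member with the highest share left in papilloma 1, where 33 counts made 1.40% of the skin level (0.963 to 1.97%), while the other 9 members held between 0.0195 and 0.117%. In papilloma 2 its share was 24.1% (22.3 to 26.0%), within the range of the other members.

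The type I keratins of the cortex included the highest levels per length. Krt33a stood at 1219, 0.704, 286 and 1.04 CPM in skin, papilloma 1, papilloma 2 and the tumour, and at 0.662 and 0.877 CPM in mSCC-38 and mSCC-20. Krt34 stood at 1204, 0.610, 254 and 0.876 CPM in those biopsies, and at 0.451 and 0.552 CPM in mSCC-38 and mSCC-20. Per length, these 2 genes were the highest of the 10 in skin and papilloma 2. Krt31 stood at 482, 0.0939, 103 and 1.40 CPM in the biopsies, and had 0 counts in mSCC-38 and 0.260 CPM in mSCC-20. Krt33b stood at 404, 0.141, 123 and 0.947 CPM, and at 0.0301 and 0.0975 CPM in mSCC-38 and mSCC-20. Papilloma 1 and the tumour gave other orders per length: Krt32 came first in papilloma 1, with 0.930 CPM per kb from 33 counts, and Krt31 in the tumour, with 0.887 CPM per kb from 59 counts.

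The type II keratins of the cortex followed the same division. Krt81 stood at 694, 0.188, 163 and 0.450 CPM in skin, papilloma 1, papilloma 2 and the tumour, and at 0.0301 and 0.357 CPM in mSCC-38 and mSCC-20. Krt86 stood at 539, 0.282, 131 and 0.687 CPM, and at 0.241 and 0.617 CPM in mSCC-38 and mSCC-20. Krt83 stood at 255, 0.0939, 45.4 and 0.0473 CPM, and at 0.0902 and 0.195 CPM in mSCC-38 and mSCC-20. Krt83 was the member with the lowest share left in papilloma 2, at 17.8% (16.8 to 18.9%), an interval that lies below those of the other 9.

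Several of these genes are near copies, so reads could be split among them and single-gene values are uncertain. Over coding sequences of GENCODE M21, read as the longest reading frame for 9 members (Krt85 was not used here), Krt31, Krt33a, Krt33b and Krt34 were 86.7 to 93.2% identical in pairs and shared unbroken runs of 114 to 295 bases. Krt81, Krt83 and Krt86 were 91.1 to 93.1% identical, and Krt81 and Krt86 shared a run of 374 bases. Krt32 and Krt35 were at most 70.2% identical to any other type I member. Type I and type II members shared no run over 13 bases.

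Scaled by gene length, the make-up of the keratins in papilloma 2 was close to that in skin. In papilloma 2, the 6 type I genes summed to 556 and the 4 type II genes to 257 CPM per kb, a ratio of 2.16, against 2323 and 1058 CPM per kb in skin, a ratio of 2.20. Across the 10 genes, log2 CPM per kb in papilloma 2 and skin gave Pearson's r of 0.969 and Spearman's rho of 0.818, a description over genes of 2 libraries that share near copies. The order in papilloma 2 by CPM per kb was Krt33a with 171, Krt34 with 159, Krt81 with 88.4, Krt33b with 78.4 and Krt85 with 76.9, then Krt86 with 67.2, Krt35 with 66.8, Krt31 with 65.5, Krt83 with 24.99 and Krt32 with 16.02. In skin it was Krt34 with 754, Krt33a with 729, Krt81 with 375, Krt31 with 306, Krt86 with 276 and Krt85 with 265, then Krt33b with 257, Krt35 with 211, Krt83 with 140 and Krt32 with 66.4. With 1 library on each side, whether neighbours in these orders differ cannot be tested. Krt33b made up 9.64% of the summed CPM per kb in papilloma 2 and 7.60% in skin, Krt35 8.20% and 6.25%, and Krt34 19.5% and 22.3%.

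**Figure D3:**
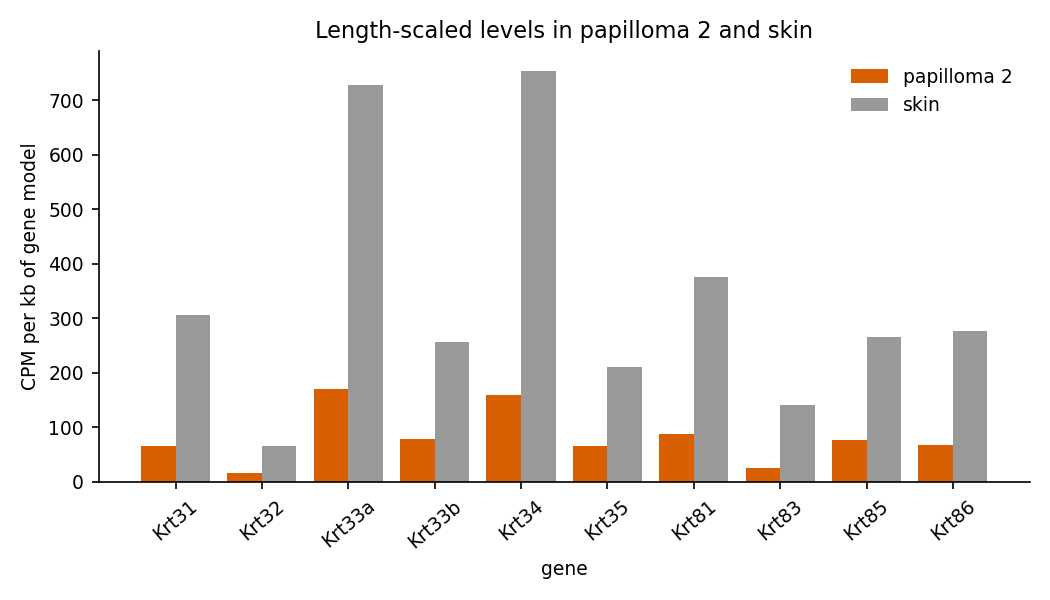
CPM per kb of gene model (bars, from 0) of each hair shaft keratin in papilloma 2 (orange) and skin (grey), 1 library each. Krt33a and Krt34 are the highest in both libraries, at 171 and 159 CPM per kb in papilloma 2 and 729 and 754 CPM per kb in skin, and Krt32 is the lowest.

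Papilloma, the benign lesion, was set against healthy skin. Every keratin averaged lower in papilloma, but the 2 papillomas lay so far apart that none passed the test. Krt33a averaged 143 ± 201 CPM in papilloma (SD, n = 2), against 1219 CPM in skin, which gave a log2 fold change of -3.09 with an SE of 2.33 (edgeR adjusted p = 0.353). Krt32, whose papillomas were the closest on the log scale, averaged 14.1 ± 17.8 CPM in papilloma, against 111 CPM in skin, at -2.96 ± 1.30 (edgeR adjusted p = 0.149). Adjusted p-values of the 10 ran from 0.149 to 0.409. By edgeR's quasi-likelihood test 0 of the 10 were called lower, where 14.1% of the 16353 genes tested were. At an unadjusted p under 0.05 edgeR gave 0 of the 10, against 7113 of all genes in either direction. DESeq2's Wald test also gave 0 of either kind, against 5453 of all genes at an unadjusted p under 0.05. In both papillomas, every member was nonetheless below its skin level.

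By size alone (at least 4-fold, with 0.5 CPM added to each side, and at least 10 CPM in the higher group), all 10 keratins were lower in papilloma than in skin, against 5.09% of 10837 genes. Their median log2 ratio was -3.05, between -3.46 for Krt83 and -2.65 for Krt35, and the median of all those genes was 0.07. The size depends on which papilloma is taken. In papilloma 1 alone the median was -9.37 and 10 of 10 passed the 4-fold bound, against 5.95% of genes. In papilloma 2 alone the median was -2.06 and 7 of 10 passed, against 3.64% of genes; Krt33b, Krt35 and Krt85 did not.

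Papilloma 2 stood above papilloma 1 in all 10 keratins. By the same rule of size 10 of 10 were higher in papilloma 2, against 1.08% of 9962 genes, and the median log2 ratio was 7.42, with a median of -0.04 over all those genes. Krt33a had 8067 counts in papilloma 2 and 15 in papilloma 1, a ratio of 405 after scaling (246 to 725). Krt34 had 7174 counts in papilloma 2 and 13 in papilloma 1, a ratio of 416 (243 to 782). Krt32, with 754 counts in papilloma 2 and 33 in papilloma 1, gave the lowest ratio of the 10, 17.2 (12.2 to 25.2). Of the 108 genes at least 4-fold higher in papilloma 2, 10 were these keratins, 38 were Krtap genes, 7 were of the inner root sheath list and 5 were of the melanocyte list.

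**Figure D4:**
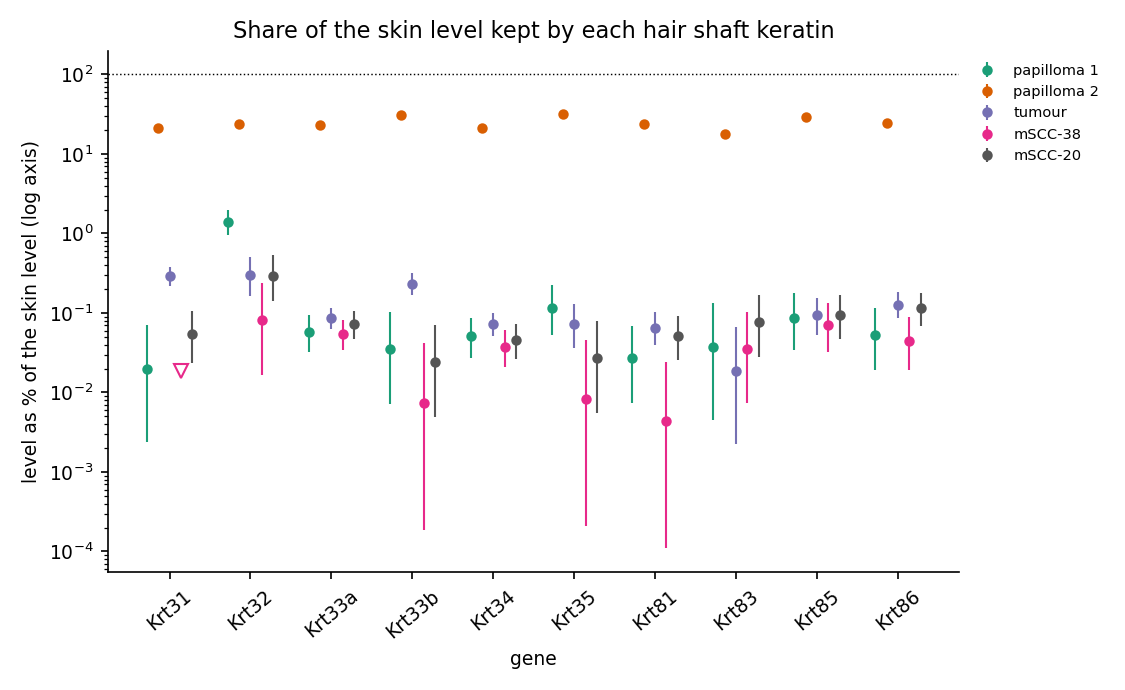
Level of each keratin as a percentage of its level in skin (log axis, dotted line at 100%) in the 5 other libraries, with exact 95% counting intervals, and an open triangle at the limit for the count of 0 of Krt31 in mSCC-38. Papilloma 2 lies between 17.8 and 31.6% for all 10 genes, and every other value lies at 1.40% or below.

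The tumour was then set against papilloma. No keratin passed the test here either, and the direction hangs on papilloma 2. Krt34 stood at 0.876 CPM in the tumour, against 127 ± 179 CPM in papilloma (SD, n = 2), which gave a log2 fold change of -7.18 with an SE of 3.59 (edgeR adjusted p = 0.213). Krt32 came nearest the threshold, with 0.331 CPM in the tumour, against 14.1 ± 17.8 CPM in papilloma, at -5.41 ± 2.01 (edgeR adjusted p = 0.12). edgeR called 0 of the 10 lower, where 10.6% of genes tested were. Krt32 alone had an unadjusted p under 0.05 by edgeR, where 6297 of the 16353 genes tested did in either direction. DESeq2 called 0 of the 10, with 7 at an unadjusted p under 0.05, where 5074 of the 16353 genes did.

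By size, all 10 keratins were lower in the tumour than in the mean of the papillomas, against 5.15% of 10415 genes, with a median log2 ratio of -5.92. Against papilloma 2 alone, all 10 keratins were at least 4-fold lower in the tumour, where 5.29% of 10455 genes were, with a median log2 ratio of -6.91. Against papilloma 1 alone, no member reached 10 CPM on either side, so none could pass the rule, by which 2.73% of 10326 genes were higher and 4.62% lower in the tumour; the median of the keratins was 0.33. There the counts were few: Krt31 had 59 counts in the tumour and 2 in papilloma 1, a ratio of 14.9 after scaling (3.94 to 126), and Krt33b had 40 and 3, a ratio of 6.72 (2.14 to 34.0). Krt32 had 14 counts in the tumour and 33 in papilloma 1, a ratio of 0.214 (0.106 to 0.411). The intervals of the other 7 include 1.

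Tumour and skin have 1 library each and allow no test. All 10 keratins were at least 4-fold lower in the tumour than in skin, against 9.14% of 11114 genes, with a median log2 ratio of -8.85 (0.5 CPM added to each side) and a median of 0.10 over all those genes. The shares left in the tumour were not alike. Krt31 kept 0.290% of its skin level (0.221 to 0.374%), Krt32 0.299% (0.164 to 0.503%) and Krt33b 0.234% (0.167 to 0.319%). Krt34 kept 0.0727% (0.0512 to 0.1%) and Krt33a 0.0855% (0.0621 to 0.115%), and their intervals lie below those of the first 3. Krt83, with 2 counts, kept 0.0186% (0.00225 to 0.067%).

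Cells isolated from a tumour held these keratins at the edge of detection. The 10 genes summed to 63 counts in mSCC-38 (48.4 to 80.6) and 115 counts in mSCC-20 (94.9 to 138). No member reached 10 CPM in mSCC-38 or mSCC-20, so none could pass the rule of size, which 6.80% of 9795 genes passed as higher and 3.31% as lower in mSCC-38. Krt31 had 0 counts in mSCC-38 and 8 in mSCC-20, so that the upper limit of the ratio was 0.542, or at least 1.84-fold lower when the counting error of both is taken in. Krt81 had 1 count in mSCC-38 and 11 in mSCC-20, a ratio of 0.0842 (0.00196 to 0.579), and Krt86 had 8 and 19, a ratio of 0.39 (0.148 to 0.932). The intervals of the other 7 include 1. The median log2 ratio was -0.24, also with Krt31 set to 3 counts, with a median of -0.16 over the 9795 genes.

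These low levels can be set beside genes that isolated skin tumour cells should lack. In mSCC-38 the 10 keratins stood at a median of 0.0364% of their skin level, 6 skeletal muscle genes at 0.0611% and 43 Krtap genes at 0.0438%. In mSCC-20 the medians were 0.0630%, 0.0617% and 0.0785%. The keratins of these cells stood near the level of muscle genes there. Whether their counts are background or low expression was not tested. The medians of the keratins in papilloma 1 and the tumour, 0.0515% and 0.0893%, were of the same order, so a ratio taken from those values is not exact. In the tumour, Krt31 at 0.290% (0.221 to 0.374%) and Krt33b at 0.234% (0.167 to 0.319%) lay above their values in mSCC-20, 0.0540% (0.0233 to 0.106%) and 0.0241% (0.00497 to 0.0705%). The share of Krt32 in papilloma 1 was 1.40%, with an interval of 0.963 to 1.97%, above all 6 muscle genes in mSCC-38 (at most 0.544%) and above 5 of the 6 in mSCC-20 (0.0371 to 0.467%). The other muscle gene in mSCC-20, Mb, stood at 1.29% from 46 counts, inside that interval.

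Other genes of the follicle were counted from lists chosen with earlier results of these data known. Further hair-type keratins were 5 of 6 in the table. Over all 16353 genes tested, 14.1% fell in papilloma and 10.6% in the tumour against papilloma. Of the 5 keratins, 1 fell in papilloma and again in the tumour against papilloma. This was Krt84, a type II keratin of the tongue and hair, at -1.48 ± 0.28 on the log2 scale in papilloma against skin (edgeR adjusted p = 0.0242), with 15.2 and 23.3 CPM in papilloma 1 and papilloma 2, against 54.0 CPM in skin. Krt39 and Krt82 had the lowest fold changes of these 5, -3.45 and -3.12, and did not pass (edgeR adjusted p = 0.154 and 0.166). Krt36, next to Krt84 at the upper end, was at -2.23 (edgeR adjusted p = 0.167). Of 50 Krtap genes tested, 0 were called in either direction in papilloma against skin, and of 8 inner root sheath genes, which form the mould around the growing shaft, also 0. At an unadjusted p under 0.05, edgeR gave 1 Krtap gene and 0 sheath genes, against 7113 of the 16353 genes tested. DESeq2 gave 0 of either list, adjusted or not. Papilloma 2 held a median of 28.8% of the skin level over 43 Krtap genes and 26.4% over the 8 sheath genes, beside 23.8% over the 10 shaft keratins. Papilloma 1 held 0.0480%, 0.0684% and 0.0515% in that order. The lowest fold changes among the Krtap genes were -3.70 for Krtap26-1 and -3.60 for Krtap4-8 (edgeR adjusted p = 0.217 and 0.13). The highest were 0.73 for Krtap5-3 and 0.59 for Krtap5-2 (edgeR adjusted p = 0.76 and 0.787), both at 0 counts in papilloma 1 and under 2 CPM elsewhere: Krtap5-3 stood at 1.66 CPM in papilloma 2, against 0.524 CPM in skin, and Krtap5-2 at 0.743 CPM, against 0.262 CPM. Among the sheath keratins, Krt28 and Krt26 were lowest, at -3.34 and -3.15 (edgeR adjusted p = 0.305 and 0.294), and Krt71 and Krt25 highest, at -2.53 and -2.65 (edgeR adjusted p = 0.455 and 0.433). Krt71 stood at 4243, 2.96, 1460.3 and 2.68 CPM in skin, papilloma 1, papilloma 2 and the tumour.

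**Figure D5:**
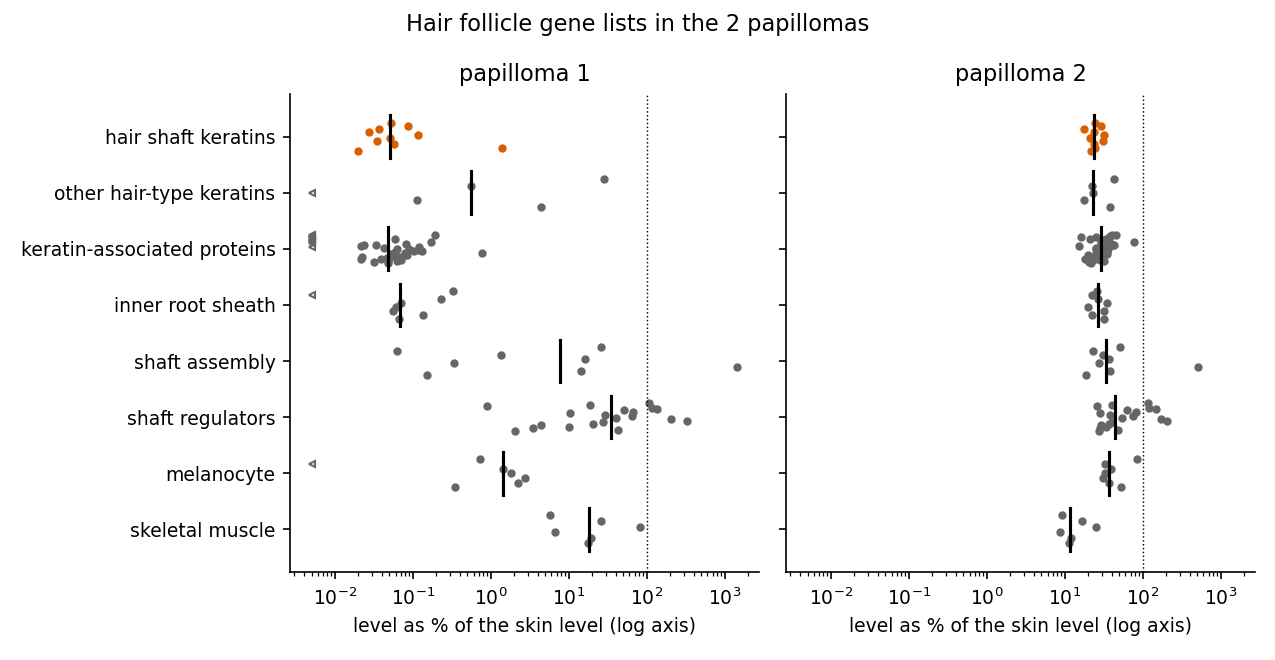
Level of each gene of 8 lists as a percentage of its level in skin (points, log axis, list median as a bar, 100% as a dotted line) in papilloma 1 (left) and papilloma 2 (right), for genes with at least 10 CPM in skin; open triangles at the left edge are counts of 0. The medians of shaft keratins, keratin-associated proteins and inner root sheath genes lie at 0.0515, 0.0480 and 0.0684% in papilloma 1 and at 23.8, 28.8 and 26.4% in papilloma 2.

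Regulators of the shaft were less alike than its keratins. Of 20 tested, 2 rose and 7 fell in papilloma, where 1959 and 2298 of the 16353 genes tested did. Hoxc13, a homeobox factor known to act on hair keratin genes, stood at 138, 2.82, 37.6 and 0.521 CPM in skin, papilloma 1, papilloma 2 and the tumour, and did not pass (edgeR adjusted p = 0.154). Lef1 stood at 25.9, 0.892, 7.36 and 0.473 CPM. Of the 20 regulators, 18 stood higher in papilloma 2 than in papilloma 1, where the median log2 ratio over 9962 genes was -0.04. By the rule of size 2 were higher, against 1.08% of those genes. By the bare ratio of shares, with nothing added and no bound on CPM, 4 were over 4 times higher. Hoxc13 held 27.3% of its skin level in papilloma 2 and 2.05% in papilloma 1, and Msx2 29.2% and 4.38%. Lef1 held 28.4% and 3.44% and Shh 25.5% and 0.904%, but neither reached 10 CPM in papilloma 2. The 2 that stood lower in papilloma 2 were Ovol1 and Prdm1. Foxn1, a factor needed for hair keratinisation, was close in the papillomas, with 25.7 and 28.5 CPM in papilloma 1 and papilloma 2, against 59.3 CPM in skin, a log2 fold change of -1.13 by edgeR (adjusted p = 0.0133). Dlx3 and Gata3, which regulate shaft and sheath differentiation, fell, with log2 fold changes of -1.79 and -1.54 by edgeR (adjusted p = 0.0296 and 0.0217). Ovol1 and Prdm1, which also act in the epidermis between follicles, rose by 1.42 and 0.94 (edgeR adjusted p = 0.0441 and 0.0381). Shh, a signal from the hair matrix, had the lowest fold change, -2.88, and did not pass (edgeR adjusted p = 0.159).

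Of 8 shaft assembly genes, 1 rose and 1 fell in papilloma. This is near the share of all genes, where 1959 rose and 2298 fell of the 16353 tested. Tgm3, a crosslinking enzyme that epidermis also makes, rose by 3.30 (edgeR adjusted p = 0.0391), and Hephl1, a copper-containing oxidase known from hair, fell by 1.91 (edgeR adjusted p = 0.044). Dsg4, the desmoglein of the hair cortex, and Gprc5d, an orphan receptor of cortex cells, had the lowest fold changes, -3.37 and -3.10, and did not pass (edgeR adjusted p = 0.182 and 0.333). Selenbp1, second highest in the list after Tgm3, was at -1.38 (edgeR adjusted p = 0.0772).

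Genes whose pattern was nearest to that of the keratins were ranked among 1966 others with at least 100 CPM in skin. The measure was the root mean square difference, over 5 libraries, of log2 level minus log2 level in skin from the median of the 10 keratins, with 0.5 CPM added to each level. The 12 nearest were Gprc5d at 0.0534, then Krtap9-3, Krtap3-3, Krt26, Krtap16-10, Krtap4-7, Fam26d, Gm11563, Gm10229, Crym, Krt73 and Krt72-ps at 0.288 to 0.471. The keratins themselves lay at 0.165 to 2.24 from their own median profile, with a median of 0.496 and Krt32 the farthest. The median of the 1966 others was 8.41. Because most values outside skin and papilloma 2 are near or below 0.5 CPM, this measure leans on the skin level: the 12 stood at 310 to 832 CPM in skin, around the median of 443 CPM of the keratins. Ranked instead by log2 share of the skin level with nothing added (a count of 0 set to 3 counts), a measure chosen after the data were seen, the nearest 12 stood at 220 to 4243 CPM in skin and shared 5 genes with the first 12. Gprc5d came first by both, at 0.2 by share, and Krtap8-1 second by share, at 0.25. The shares of Krtap8-1 were 0.0480% of the skin level in papilloma 1, 21.9% in papilloma 2 and 0.0658% in the tumour. Gprc5d stood at 531, 0.329, 123 and 0.592 CPM in skin, papilloma 1, papilloma 2 and the tumour, and at 0.180 and 0.357 CPM in mSCC-38 and mSCC-20.

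Markers of other cell types moved partly with the keratins. Of 7 melanocyte genes tested, which mark the pigment cells that serve the growing hair, 0 were called by edgeR or DESeq2, and 0 had an unadjusted p under 0.05; papilloma 2 held a median of 37.3% and papilloma 1 of 1.45% of the skin level, and their sum was 163 CPM in papilloma 2 and 9.25 CPM in papilloma 1, with Oca2 at 0 in papilloma 1. Dct and Oca2, of pigment synthesis, had the lowest fold changes, both -2.57, and Slc45a2 and Tyr, which act in the same pathway, the highest, -1.20 and -1.90 (edgeR adjusted p = 0.163, 0.251, 0.611 and 0.427 in that order). Skeletal muscle genes went otherwise by sum, with 964 CPM in papilloma 2 and 1566 CPM in papilloma 1, against 8153 CPM in skin. In papilloma against skin, 5 of 6 fell. Acta1, Ckm, Myh4 and Mylpf stood lower in papilloma 2 than in papilloma 1. Myh1 and Mb stood higher, at 8.74% and 9.20% of the skin level in papilloma 2, against 6.73% and 5.68% in papilloma 1. Of 6 bulge stem cell genes 5 fell, of 7 dermal papilla genes 4, of 6 sebaceous gland genes 4 and of 6 adipocyte genes 4. In these 4 lists 0 rose. Over all 16353 genes tested, 14.1% fell. Krt75, of the companion layer, did not pass (edgeR adjusted p = 0.1). Several of these lists, and Krt75, also differed between the papillomas in the direction of the keratins by their medians. Of the 8 dermal papilla genes listed, 4 had at least 10 CPM in skin. These held a median of 28.6% of the skin level in papilloma 2 and 7.54% in papilloma 1. By the same bound adipocyte genes held 18.1% and 5.41%, bulge genes 33.4% and 17.7%, and Krt75 30.6% and 5.81%. The 5 sebaceous genes within that bound held 44.7% in papilloma 2 and 46.3% in papilloma 1, and muscle genes 11.6% and 18.4%. Bulge genes summed to 349 and 475 CPM in papilloma 1 and papilloma 2, against 1945 CPM in skin. Sebaceous genes summed to 171 and 192 CPM, against 373 CPM. The adipocyte sum went against its median, with 1273 and 664 CPM, against 754 CPM in skin. Fabp4 made up most of it, at 1251 and 604 CPM in papilloma 1 and papilloma 2. In the dermal papilla and bulge lists, Sox18 and Nfatc1 also went against the medians. They held 46.8% and 47.6% of the skin level in papilloma 2, against 57.1% and 60.1% in papilloma 1. Sox2 of the dermal papilla list did so too, with 0.566 CPM in papilloma 2, against 2.02 CPM in papilloma 1. At 1.11 CPM in skin, Sox2 was not in the median. The extremes of these lists by fold change were Lhx2 and Krt15 (lowest) and Cd34 and Nfatc1 (highest) for the bulge, Rspo3 and Corin, and Sox2 and Sox18, for the dermal papilla, and Awat2 and Awat1, and Elovl3 and Soat1, for the sebaceous gland. They were Mb and Myh1, and Myh4 and Mylpf, for muscle, and Lep and Cfd, and Fabp4 and Cidec, for adipocytes. Fabp4 averaged higher in papilloma than in skin, at 1.41, and did not pass (edgeR adjusted p = 0.1). The part of these cell types in the levels of the keratins was not tested.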

How the data were processed

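RNA was measured in 6 libraries (skin, 2 papillomas, tumour, mSCC-38 and mSCC-20), from libraries that the labels' protocols say were prepared with a small-library set for SOLiD. The authors deposited raw counts per gene model and RPKM values; mm9 is the build named in the submitters' processing notes. How reads were aligned and counted, and whether by strand, is not given in the sources used here. RPKM values, per the file headers made by the authors from those counts and the gene length, were used only to check the counts: they imply totals of 99.2 to 99.6% of the summed counts. Start positions are printed 1-based.

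The genes and lists were chosen with earlier results of these data known. CPM used TMM factors over 6 libraries (0.847 to 1.20). edgeR 4.0.16 (quasi-likelihood test, TMM, default filter by group, limma 3.58.1, R 4.3.3) was fitted to the 4 biopsies over 16353 genes, with 1 residual degree of freedom from the papillomas, so skin and tumour are taken to vary as they do. A gene was called where its p, adjusted by Benjamini-Hochberg, was under 0.05. The SE was worked back from the fold change and the F statistic. The calling of genes, but not this SE, was tested on simulated data. There both papillomas were drawn around the same mean, unlike the levels of these keratins. Named genes were all 10 members, the 12 nearest in pattern and, per list, the 2 highest and 2 lowest by fold; others were chosen after their values were seen. Alternatives were DESeq2 1.42.0 (size factors, Wald test), total-count scaling, no filter, a fit of all 6 libraries, pseudocounts of 0.1 and 1 CPM, and leaving out each papilloma; member calls under these fits were added after seeing the data. Total counts were 25140489 to 42992597 per library, which sets the floors given.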

Additional observations from a re-analysis of the deposited data

How the results depend on the processing

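No paired analysis was possible because only papilloma has more than 1 library, so no 2 groups share replicate numbers. In each of the 5 alternative fits, 0 of the 10 keratins were called in papilloma against skin and 0 in tumour against papilloma; adjusted p-values over the alternatives ran from 0.0894 (Krt32 with no filter on low counts) to 0.643 and from 0.0531 (Krt83 by DESeq2) to 0.35. With no filter, 1 and 5 of the 10 had an unadjusted p under 0.05 in the 2 comparisons. Of all 19190 genes then tested, 7417 and 6704 had one, in either direction. Total-count scaling moved the split of calls over all genes in papilloma against skin to 1015 higher and 3484 lower, where TMM gave 1959 and 2298; DESeq2 gave 2352 and 1730. Leaving out 1 papilloma leaves no residual degree of freedom and gives values only. The median log2 ratio of the keratins in papilloma against skin then ran from -9.37 to -2.06, and in tumour against papilloma from -6.91 to 0.33. That log2 ratio turned positive without papilloma 2 for 7 genes: it ran from -5.77 (without papilloma 1) to 1.68 for Krt31, -7.54 to 0.36 for Krt33a, -6.42 to 1.17 for Krt33b, -7.53 to 0.31 for Krt34, -7.43 to 0.47 for Krt81, -7.02 to 0.045 for Krt85 and -6.79 to 0.60 for Krt86. The median in tumour against skin was -9.84 with 0.1 CPM and -8.16 with 1 CPM added to each side, since the tumour values are near or below the added amount. Of the 12 genes nearest in pattern, 5 were also among the nearest 12 by share of the skin level. In the tumour, papilloma 1 and the isolated cells, depth limits the single genes, which had 0 to 59 counts.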

Other observations

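Some follicle genes outside the 10 keratins kept a larger share of their skin level in the tumour or the isolated cells than the keratins, whose shares there were at most 0.299%. S100a3, which encodes a calcium-binding protein of the hair cuticle, stood at 87.1 CPM in the tumour, against 817 CPM in skin, with 2.72 and 224 CPM in papilloma 1 and papilloma 2 and 3.16 and 67.5 CPM in mSCC-38 and mSCC-20. Dsg4 stood at 6.20 CPM in the tumour, 6.61% of its skin level. Padi3, an enzyme gene that modifies proteins of the sheath and shaft, stood at 486 CPM in mSCC-38 and 315 CPM in mSCC-20, against 396 CPM in skin. Foxn1 stood at 0.241 CPM in mSCC-38 and 28.0 CPM in mSCC-20. These values were chosen after they were seen, come from 1 library each, and were not tested.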
